A study of Mus musculus with 8 samples.

Results

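The 38 genes described here encode enzymes that place or remove methyl groups on histone H3, other subunits of their complexes, and corepressors that work beside them. Their coverage by H3K4me peaks was read in the embryonic mouse cortex with and without Prdm16. The genes were listed by name, not by a threshold on a measured value. Each gene was taken as a locus, its span in GRCm38 (mm10) plus 10 kb on either side, and the measurement is the number of bases of that locus that lie under peaks in each of 4 peak lists. The 38 loci stand among 21883 protein-coding loci measured the same way. The peaks come from native chromatin of whole cortex lysates of E15.5 embryos, cut with micrococcal nuclease and precipitated with an antibody sold against monomethylated H3K4 (abcam ab8895, labelled anti-H3K4me). The 2 WT libraries are Prdm16 flox/flox without a Cre. The 2 cKO libraries are Emx1Ires-Cre; Prdm16flox/flox, so both groups carry the floxed alleles and differ in the Cre. Emx1-driven Cre acts in the progenitors of the dorsal telencephalon and their descendants, so cells of other origins in the lysate keep Prdm16. The labels do not say whether the libraries come from separate embryos or from pools, and p-values here measure only the spread between libraries, which may be technical.

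Methyl groups on histone H3 lysines are placed by SET-domain enzymes and by DOT1L, and are removed by the flavin-dependent KDM1 enzymes and the Jumonji enzymes. KMT2A to KMT2D and the SETD1 enzymes write H3K4 methylation, which in its monomethylated form marks enhancers and the sides of active promoters. The Polycomb complex PRC2 writes H3K27 methylation and the EHMT, SETDB1 and SUV39H enzymes write H3K9 methylation, both of which accompany silencing. PRDM16 is itself a PR-domain protein of this wider family. It is known to bind the corepressors CTBP1 and CTBP2 and the H3K9 methyltransferase EHMT1, while HDAC1 and HDAC2 are the deacetylases of the CoREST, NuRD and SIN3 complexes.

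The 4 lists held 66476 to 82683 peaks covering 114 to 166 Mb, with more bases covered in both cKO lists (148 and 166 Mb) than in both WT lists (130 and 114 Mb). The lists give no read counts, so the depth behind them is unknown. Loci of 10 dorsal cortex marker genes had a median of 59.7% of their bases under peaks, with 91.5% at Sox2. The medians were 2.66% for 5 microglial, 6.37% for 5 endothelial, 1.66% for 5 erythroid and 3.23% for 5 liver and muscle markers, with Tie1, Alas2, Hbb-bt and Alb at 0 in every library. The Prdm16 locus carried 154 and 144 kb of peaks in WT against 171 and 182 kb in cKO, which does not check the deletion because a histone peak can lie over the rest of the gene. In a bulk lysate, fewer cells of a type and less mark per cell cannot be told apart. With 2 libraries against 2, an exact two-sided permutation test cannot go below p = 0.33, so single values carry no such test.

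The starts of the member genes were mostly free of peaks. Of the 38 members, 27 matched the RefSeq promoter table (GRCm38.p6), and every gene was scored at its outermost start there. The start base lay under a peak in all 4 libraries at 1 of these 27 (3.7%), Ctbp2, against 19.5% of 17491 protein-coding genes with a start in the table. It lay under no peak in any library at 20 of the 27 (74.1%), against 53.0% of all genes. This was so although member promoters were rich in CpG, the dinucleotide found clustered at the starts of widely expressed genes. A count of C followed by G, which reads the same on both strands, in the 250 bases before the start gave a median of 22 CpG for the members and 10 for all genes. At least 10 CpG stood in 25 of the 27 (92.6%) and in 50.4% of all promoters of this length, and at least 1 CpG in 92.6% of all. Among the 8821 genes with at least 10 CpG, the start base was covered in all 4 libraries in 28.0% and in none in 30.5%. Kdm4c, counted among the 20 members without a peak over the start, had another listed start with 19 CpG. That start lay under a peak in WT replicate 1 and cKO replicate 2.

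The 250 bases before the start are shown for 5 members, 5′ to 3′ on the strand of the gene from RefSeq (GRCm38.p6), with each CpG in capitals, because together they span the range from a bare CpG-rich start to a covered CpG-poor one. Kmt2c (chr5:25498784-25499033, minus strand) had the most CpG of the members, 48, and a GC content of 91.6%. Kmt2a (chr9:44881290-44881539, minus strand) had 29 CpG, and no library had a peak over the start of either gene. Suz12 (chr11:79992856-79993105, plus strand) had 37 CpG and no peak anywhere in its locus. Suv39h2 (chr2:3474987-3475236, minus strand) had 27 CpG and a start that lay under a peak in the cKO libraries only. Ctbp2 (chr7:133081861-133082110, minus strand) had 2 CpG and a start covered in every library; the longest span of the gene begins at -42.1 kb from this start.
Kmt2c: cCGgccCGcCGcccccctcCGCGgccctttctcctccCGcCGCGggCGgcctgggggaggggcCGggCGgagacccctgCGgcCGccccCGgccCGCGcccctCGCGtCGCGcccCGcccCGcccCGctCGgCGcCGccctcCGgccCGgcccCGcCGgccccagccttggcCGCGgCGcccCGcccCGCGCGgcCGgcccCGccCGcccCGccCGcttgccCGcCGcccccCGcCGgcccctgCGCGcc
Kmt2a: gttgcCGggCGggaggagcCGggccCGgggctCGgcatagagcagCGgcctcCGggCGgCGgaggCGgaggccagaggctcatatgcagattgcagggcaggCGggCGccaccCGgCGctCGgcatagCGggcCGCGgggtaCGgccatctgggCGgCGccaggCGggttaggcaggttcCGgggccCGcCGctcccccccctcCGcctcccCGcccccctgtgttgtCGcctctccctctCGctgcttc
Suz12: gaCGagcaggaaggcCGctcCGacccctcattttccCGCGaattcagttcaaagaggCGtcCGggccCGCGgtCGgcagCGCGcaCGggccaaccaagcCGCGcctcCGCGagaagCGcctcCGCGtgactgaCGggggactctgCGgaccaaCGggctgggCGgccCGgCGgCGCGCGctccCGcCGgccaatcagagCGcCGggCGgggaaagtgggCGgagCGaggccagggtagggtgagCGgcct
Suv39h2: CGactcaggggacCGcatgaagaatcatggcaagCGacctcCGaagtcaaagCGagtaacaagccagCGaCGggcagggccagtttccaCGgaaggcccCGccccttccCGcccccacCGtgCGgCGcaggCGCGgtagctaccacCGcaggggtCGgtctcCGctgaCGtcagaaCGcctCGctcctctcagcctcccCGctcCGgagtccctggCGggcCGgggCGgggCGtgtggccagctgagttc
Ctbp2: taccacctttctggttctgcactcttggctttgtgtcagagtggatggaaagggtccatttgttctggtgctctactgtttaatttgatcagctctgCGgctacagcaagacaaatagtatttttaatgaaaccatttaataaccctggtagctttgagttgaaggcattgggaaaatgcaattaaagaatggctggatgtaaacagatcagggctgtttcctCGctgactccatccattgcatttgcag

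In most members the nearest peak downstream of the start that all libraries shared lay a short distance inside the gene. Within 200 bp of the start, 11.6% ± 2.15 (SD, n = 4 libraries) of member bases were under peaks, and from 1 to 5 kb downstream 35.3% ± 3.59 were. For all genes the order was the opposite, with 33.2% ± 6.46 near the start and 17.5% ± 2.74 further in. The same held for the CpG-rich genes, with 48.9% ± 10.1 and 27.04% ± 4.13. The members' profile was highest 1650 bp downstream, where 59.4% of bases were covered. The profile of all genes was highest 950 bp downstream, at 37.7%, and that of the CpG-rich genes at the same distance, at 58.8%. The first base downstream that was covered in all 4 libraries fell between 0.5 and 2 kb from the start in 18 of 27 members (66.7%), in 23.8% of all genes and in 40.2% of the CpG-rich genes. Counting the genes where such a base lay within 10 kb, the median distance was 1172 bp in 21 members, 607 bp in all genes and 612 bp in the CpG-rich genes. These shares are descriptions of lists of unequal size and carry no test.

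**Figure D1:**
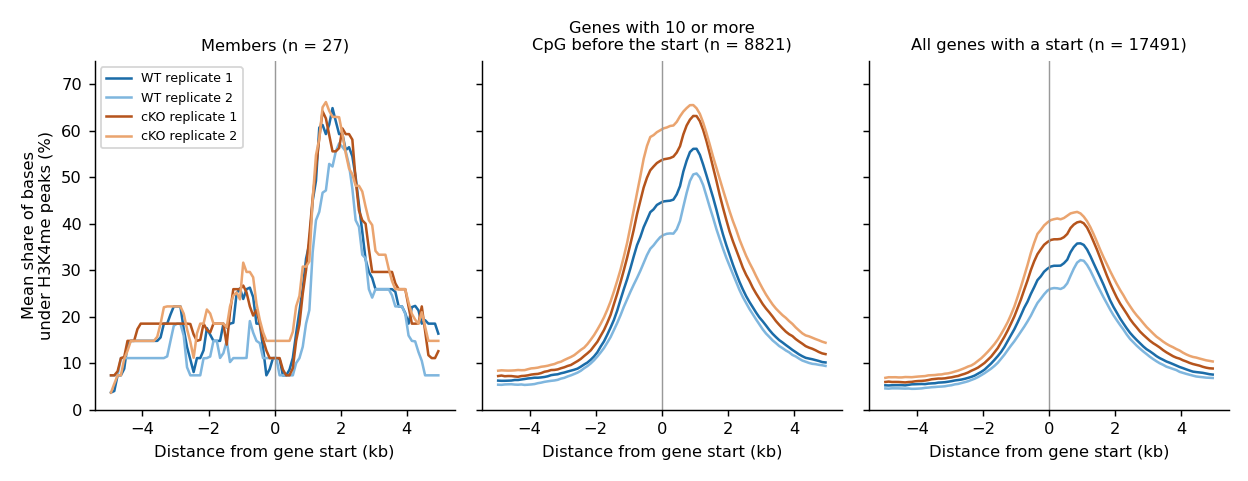
Mean share of bases under H3K4me peaks (%) in 100 bp bins from 5 kb before to 5 kb after the gene start, for the members, all protein-coding genes and genes with at least 10 CpG, 1 line per library. In each of the 4 libraries the members' line is lower at the start than between 1 and 2 kb downstream, where it has its highest point.

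Individual members showed the pattern plainly. At Kmt2a, which writes H3K4 methylation at CpG-rich promoters, the first downstream base covered in all 4 libraries lay 1788 bp from the start and opened a stretch of 6.54 kb common to all of them (chr9:44872961-44879501). At Ctbp1 this distance was 1141 bp, at Kmt2d 1052 bp, at Kdm5c 1042 bp, at Hdac2 1433 bp and at Ehmt1 1438 bp. Kdm5b had almost nothing within 2 kb of its start, with 47 covered bases in WT replicate 2 and 0 in the other libraries, and its first common base lay 2206 bp downstream. Ehmt2 was also covered close before its start, with a common base 414 bp upstream besides the first one downstream, at 1604 bp. Exon and UTR annotation was not used here, so positions are given by distance from the start.

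Across whole loci, the members' median share under peaks lay above that of all genes. The median share of a member locus under peaks was 7.48% and 6.06% in the WT libraries and 9.46% and 8.77% in the cKO libraries, or 7.94% ± 1.5 (SD, n = 4). Over all loci it was 5.56% ± 1.31 (SD, n = 4), and the members were above it in every library. Over 58 genes for partners of the same complexes, related enzymes and readers it was 11.05% ± 1.62 (SD, n = 4), above the members in every library. The background also held more empty loci, as 23.4% of all loci and 5.26% of member loci had no peak in any library. The range within the list was wide, from Suz12 and Kdm6a with no peak in any library to Ctbp2 with 39.1% ± 4.98 (SD, n = 4). By role, the median share was 18.9% over the 2 H3K27 demethylases, of which Kdm6a had no peak. It was 14.3% in the 4 corepressors and 12.8% in the 7 H3K4 methyltransferases. It was 8.05% in the 7 H3K9 and H3K36 demethylases and 7.7% in the 4 H3K36 and H3K79 methyltransferases. It was 4.79% in the 5 H3K9 methyltransferases, 4.73% in the 4 PRC2 genes and 4.2% in the 5 H3K4 demethylases. Loci overlap where genes are dense, and 35 of the 38 member loci shared bases with another protein-coding locus, so a covered base may belong to a neighbour.

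**Figure D2:**
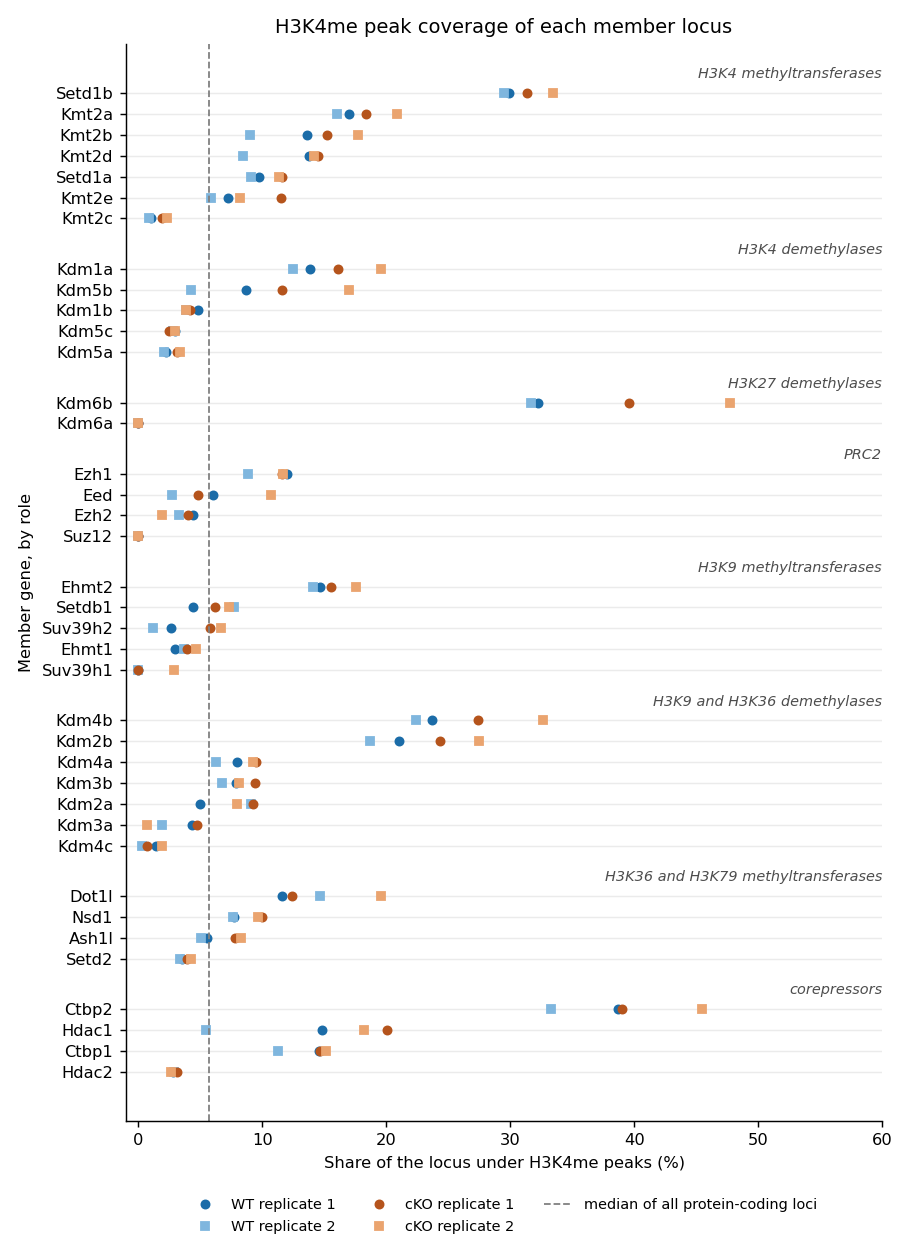
Share of each member locus under H3K4me peaks (%), 1 point per library, with the members grouped by role and ordered by mean share. The dashed line is the median of all protein-coding loci; Ctbp2, Kdm6b and Setd1b lie far to its right in all 4 libraries, and Suz12 and Kdm6a lie at 0.

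Between genotypes, no member passed the test. Bases per locus were compared as log2(bases + 500), each library centred on its own median, with limma over the 14937 loci that averaged at least 1000 covered bases, and the differences below are cKO minus WT on that scale with their standard errors. Of all loci, 0 (0%) were higher and 0 (0%) lower in cKO at an adjusted p under 0.05, the smallest adjusted p being 0.407, and 0 of the 35 members tested were called. At an unadjusted p under 0.05, 3 of 35 members were higher, where 5.56% of all loci were, and 0 were lower, where 4.43% of all loci were. The 3 were Kdm5b, Kmt2c and Suv39h2. The median difference of the members was -0.04, as was that of all loci (-0.04), with 12 members positive and 23 negative. Before centring, 24 of the 35 members had more covered bases in both cKO libraries than in either WT library, against 59.8% of all loci, and 0 had fewer in both, against 1.23%. After centring, 4 members had both cKO libraries above both WT libraries, against 17.3% of all loci, and 11 had both below, against 27.2%. Without WT replicate 1, 119 loci were higher and 5 lower at an adjusted p under 0.05 (limma), 2 of them members, Kdm5b and Hdac1, and without any of the other libraries 0 were called. Without centring the median of all loci moved to 0.35 and that of the members to 0.34. The members at an unadjusted p under 0.05 (limma) also changed with the peaks used. With every list cut to the same covered length, 0 of 33 were higher and 2 lower, Ctbp1 (-0.84) and Setd2 (-0.74). With equal numbers of peaks, 1 of 35 was higher and 0 were lower.

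**Figure D3:**
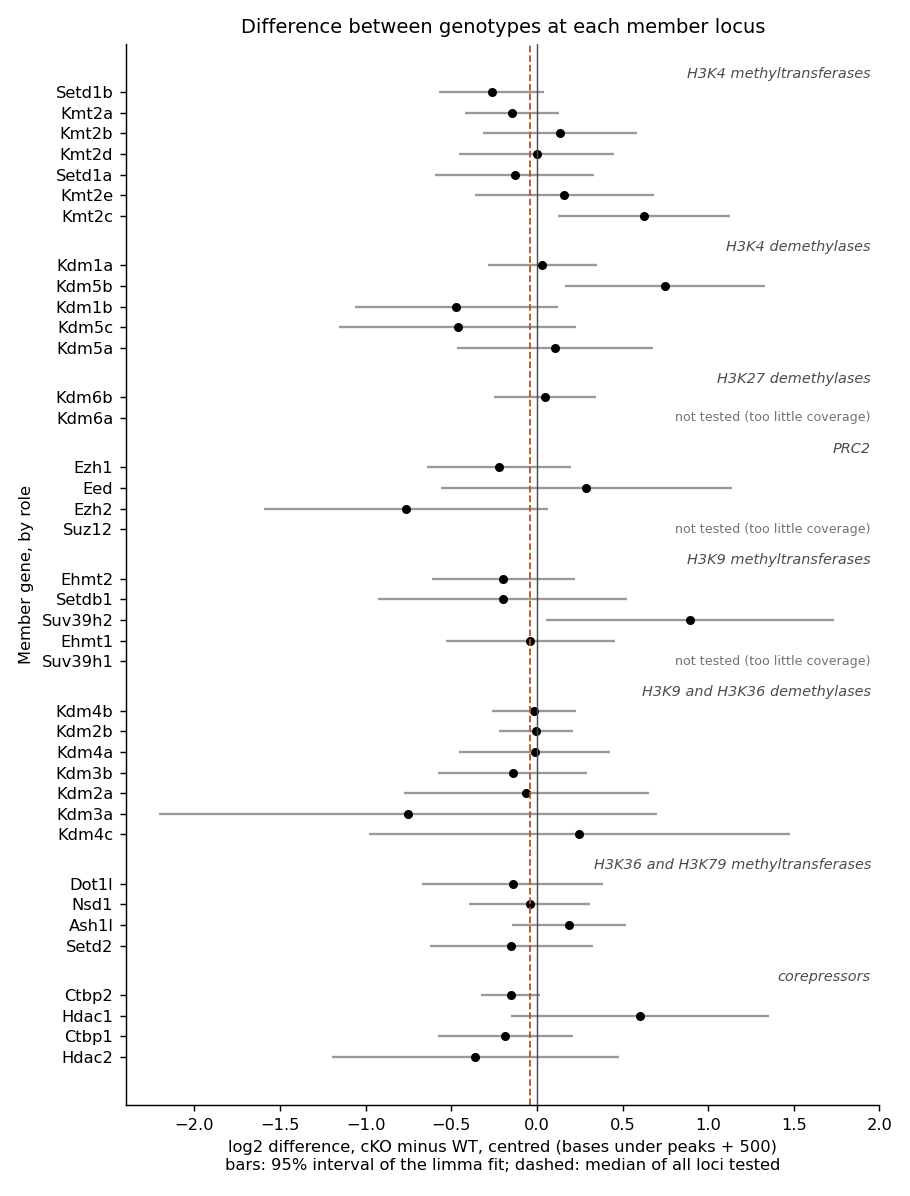
Centred log2 difference in covered bases, cKO minus WT, for each member locus, with the 95% interval of the limma fit as a bar and the median of all loci as a dashed line. The intervals of Kdm5b, Kmt2c and Suv39h2 lie above 0, none passes after adjustment, and Suz12, Kdm6a and Suv39h1 had too little coverage to be tested.

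Among the H3K4 methyltransferases, Setd1b had the largest share of its locus under peaks and Kmt2c the smallest. SETD1A and SETD1B are the catalytic subunits of the complexes that place most H3K4 trimethylation. Setd1b had 13.9 and 13.7 kb under peaks in the WT libraries and 14.6 and 15.6 kb in the cKO libraries, of a locus of 46.6 kb. Setd1a had 4.17 and 3.88 kb against 4.94 and 4.87 kb. In both genes the cKO libraries were the higher in bases by a small margin, and after centring the differences were -0.26 ± 0.13 and -0.13 ± 0.20 (limma, adjusted p = 0.529 and 0.832). KMT2A and KMT2B act at CpG-rich promoters. Kmt2a had 16.6 and 15.7 kb in WT against 17.96 and 20.5 kb in cKO. Kmt2b had 5.47 and 3.63 kb in WT against 6.13 and 7.12 kb in cKO, most of it in the flanks (21.6% of flank bases against 6.28% of the gene span). The genotypes did not overlap in covered bases at either gene, and the centred differences were -0.14 ± 0.12 and 0.13 ± 0.20 (limma, adjusted p = 0.672 and 0.817).

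KMT2C and KMT2D are the enzymes known for H3K4 monomethylation at enhancers. Kmt2d had 8.58 and 5.29 kb in WT against 9.03 and 8.85 kb in cKO, a centred difference of -0.0022 ± 0.20 (limma, adjusted p = 0.997). WT replicate 2 was the low library there and the other 3 lay close together. Kmt2c had 2.42 and 2.19 kb in WT against 4.64 and 5.7 kb in cKO, of a locus of 247 kb. Both cKO libraries lay above both WT libraries, before and after centring, with a difference of 0.63 ± 0.22, an unadjusted p of 0.0206 and an adjusted p of 0.475 (limma). The difference was 0.26 (limma, adjusted p = 0.813) with equal numbers of peaks and 0.52 (adjusted p = 0.637) with equal covered length. It kept its sign in all 18 alternatives. Peaks at Kmt2c stood on either side of the start and, in all 4 libraries, between 25.936 and 27.189 kb downstream. Further peaks began at 22.883 kb in WT replicate 2 and at 72.651 and 201.354 kb in cKO replicate 2. The first downstream peak ran from 1.281 to 2.229 kb in WT replicate 1 and from 1.378 to 2.219 kb in WT replicate 2. In the cKO libraries it ran from 1.339 to 4.031 kb and from 1.187 to 4.021 kb, so that its far edge lay further into the gene in both. Kmt2e was listed in this group as a KMT2 gene, and its product binds methylated H3K4 through its PHD finger. Kmt2e had 6.59 and 5.31 kb in WT against 10.5 and 7.46 kb in cKO, a difference of 0.16 ± 0.23 (limma, adjusted p = 0.812). Its span overlaps Srpk2, and its gene span was covered less (3.14%) than its flanks (26.1%).

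Of the H3K4 demethylases, Kdm1a and Kdm5b had the largest shares of their loci under peaks. KDM1A, also called LSD1, removes mono- and dimethylation within the CoREST complex, and KDM1B is its paralogue. Kdm1a had 9.99 and 9.04 kb in WT against 11.6 and 14.2 kb in cKO, and Kdm1b had 3.003 and 2.39 kb against 2.59 and 2.4 kb. The cKO libraries were the higher in bases at Kdm1a and overlapped WT at Kdm1b, with centred differences of 0.03 ± 0.14 and -0.47 ± 0.26 (limma, adjusted p = 0.942 and 0.555). The KDM5 enzymes remove di- and trimethylation. Kdm5a had 2.23 and 2.1 kb in WT against 3.1 and 3.37 kb in cKO, and Kdm5c, on the X chromosome, had 1.94 and 1.86 kb against 1.61 and 1.94 kb. Both were thinly covered in every library, with differences of 0.10 ± 0.25 and -0.46 ± 0.30 (limma, adjusted p = 0.893 and 0.599).

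Kdm5b, on chr1:134560178-134632878, stood out within this group by its spread. It had 8.07 and 3.95 kb under peaks in WT and 10.7 and 15.8 kb in cKO. Every library differed from the next by a clear step, and both cKO libraries lay above both WT libraries. The centred difference was 0.75 ± 0.25, with an unadjusted p of 0.0186 and an adjusted p of 0.475 (limma). The peak that begins about 2 kb inside the gene ended 3.956 kb from the start in WT replicate 2, 6.237 kb in WT replicate 1, 7.617 kb in cKO replicate 1 and 9.202 kb in cKO replicate 2. Further peaks began at 10.206 kb in cKO replicate 1 and at 13.013 kb in cKO replicate 2, where the WT libraries had none. A peak upstream of the start was present in 3 libraries and missing in WT replicate 2, and the longest stretch common to all 4 lay in the far flank, near Syt2. The value rested on the libraries and peaks chosen: it was 1.12 (limma, adjusted p = 0.0323) without WT replicate 1, 0.38 (adjusted p = 0.629) without WT replicate 2 and -1.18 (adjusted p = 0.760) when every list was cut to the same covered length.

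**Figure D4:**
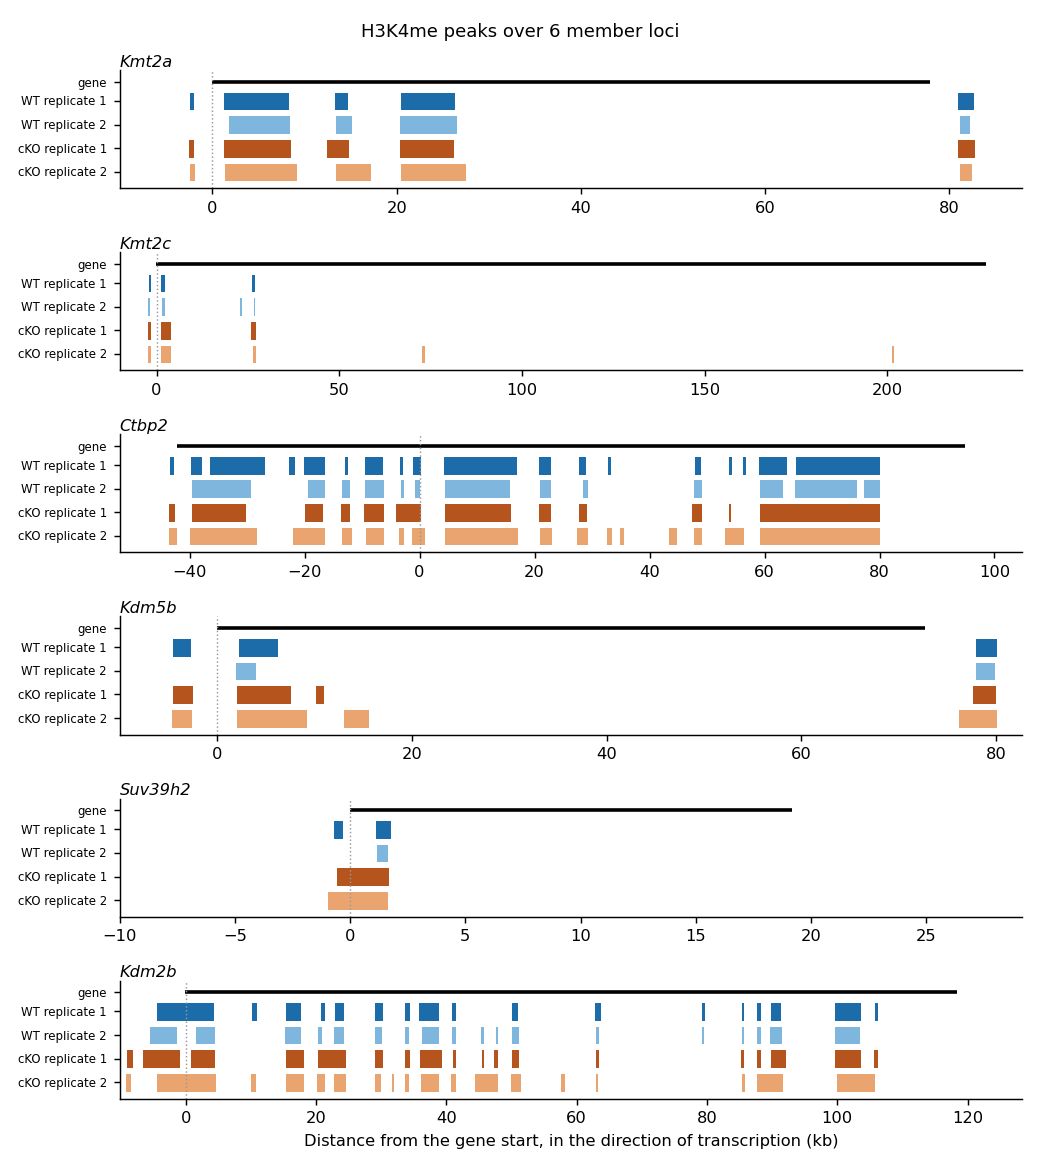
Peaks in each library over 6 member loci, drawn against the distance from the gene start in kb, in the direction of transcription, with the gene span as a black bar. The bars leave the starts of Kmt2a, Kmt2c and Kdm5b bare in all 4 libraries, extend further into Kdm5b in the cKO libraries, and cross the start of Suv39h2 in the cKO libraries only.

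The H3K27 demethylases lay at opposite ends of the range. KDM6B, also called JMJD3, and KDM6A, also called UTX, remove H3K27 methylation. Kdm6b had 13.5 and 13.3 kb in WT against 16.6 and 19.98 kb in cKO of a locus of 41.9 kb, and 51.2% of its gene span was under peaks. Kdm6a, on the X chromosome, had no peak in any library over a locus of 139 kb. The cKO libraries were the higher at Kdm6b, and the centred difference was 0.05 ± 0.13 (limma, adjusted p = 0.905). Low coverage was common on the X chromosome, where 52.7% of 966 loci had no peak in any library, against 23.4% of all loci. Of the 248 X loci tested, 181 differences were positive and 67 negative, with a centred median of 0.29, against -0.04 over all loci. At an unadjusted p under 0.05 (limma), 17.3% of them were higher in cKO, against 5.56% of all loci, and 1 was lower. The cause was not tested.

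Of the PRC2 genes, Ezh1 had the largest share under peaks and Suz12 had no peak. EZH1 and EZH2 are the alternative catalytic subunits, and EED and SUZ12 belong to the core of the complex. Ezh1 had 6.64 and 4.88 kb in WT against 6.41 and 6.46 kb in cKO, and Ezh2 had 3.74 and 2.78 kb against 3.39 and 1.61 kb. At both genes the genotypes overlapped in bases, and after centring both cKO libraries lay below both WT libraries, with differences of -0.22 ± 0.18 and -0.76 ± 0.36 (limma, adjusted p = 0.673 and 0.517). Most of the Ezh1 coverage lay in its flanks (26.7% against 2.14% of the gene span), in a locus shared with Cntnap1, Ramp2, Ccr10 and Plekhh3.

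Among the H3K9 methyltransferases, Ehmt2 had the largest share of its locus under peaks and the start of Suv39h2 lay under a peak in cKO only. EHMT1 and EHMT2, also called GLP and G9a, place mono- and dimethylation as partners. Ehmt1, on chr2:24790769-24919643, had 4.44 and 5.5 kb in WT against 5.89 and 6.96 kb in cKO, and Ehmt2 had 5.22 and 5.01 kb against 5.55 and 6.25 kb. Both cKO libraries were slightly the higher at each, and the centred differences were -0.04 ± 0.21 and -0.20 ± 0.18 (limma, adjusted p = 0.955 and 0.704). SUV39H1 and SUV39H2 place H3K9 trimethylation in heterochromatin around centromeres. Suv39h1, on the X chromosome, had a single peak of 0.978 kb in cKO replicate 2 and none in the other libraries.

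Suv39h2, on chr2:3455815-3474986, had 1.04 and 0.456 kb under peaks in WT and 2.27 and 2.62 kb in cKO, with both cKO libraries above both WT libraries. The centred difference was 0.89 ± 0.36, with an unadjusted p of 0.0402 and an adjusted p of 0.486 (limma). In WT replicate 1, a peak from -0.709 to -0.314 kb and a peak from 1.106 to 1.754 kb, relative to the start, left the start bare, and in WT replicate 2 only a downstream peak, from 1.175 to 1.63 kb, was called. In cKO replicate 1 a single peak ran from -0.578 to 1.694 kb, and in cKO replicate 2 from -0.984 to 1.634 kb, across the promoter printed above. Suv39h2 was the 1 member of 27 whose start base was covered in both cKO libraries and in no WT library, which held for 4.25% of all 17491 starts. The reverse held for 0 members and for 0.263% of all starts. In the window of 2 kb on either side of the start, the covered bases were 1045 and 456 in WT and 2273 and 2619 in cKO, a difference of 1.19 ± 0.38 (limma, adjusted p = 0.413). That difference was -0.78 (limma, adjusted p = 0.926) when every list was cut to the same covered length. The span of Suv39h2 overlaps that of Dclre1c, so the peaks cannot be assigned to 1 of the genes.

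Start windows gave no call. The test covered 10967 windows with a mean of at least 200 covered bases, on log2(bases + 100), and called 0 (0%) in either direction (limma, smallest adjusted p = 0.413). Of 22 member windows tested, 1 was higher at an unadjusted p under 0.05, where 4.68% of all windows were, and 0 were lower, where 6.89% were. The members' median difference was -0.27 and that of all windows -0.16. In covered bases, 5 member windows had both cKO libraries above both WT libraries, against 43.4% of all windows, and 1, that of Ezh2, had both below, against 2.78%. The Ezh2 window had 841 and 834 covered bases in WT and 541 and 783 in cKO, a difference of -0.79 ± 0.42 (limma, adjusted p = 0.466).

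The demethylases of H3K9 and H3K36 ranged from broad coverage to almost none. KDM4 enzymes remove trimethylation at H3K9 and H3K36, KDM3 enzymes remove mono- and dimethylation at H3K9, and KDM2 enzymes remove H3K36 methylation and bind unmethylated CpG. Kdm4b had 23.2 and 21.9 kb in WT against 26.8 and 31.9 kb in cKO. Kdm4c had 2.6 and 0.482 kb against 1.34 and 3.47 kb, of a locus of 183 kb. Kdm3a had 2.76 and 1.22 kb in WT against 3.01 and 0.456 kb in cKO. The genotypes overlapped at Kdm4c and Kdm3a and not at Kdm4b, and the centred differences were -0.01 ± 0.11 for Kdm4b, 0.25 ± 0.53 for Kdm4c and -0.75 ± 0.63 for Kdm3a (limma, adjusted p = 0.967, 0.878 and 0.68). The Kdm3a interval was the widest of the members tested, and its replicates differed from each other in both genotypes. The other 4, Kdm2a, Kdm2b, Kdm3b and Kdm4a, covered 7.81%, 22.9%, 8.05% and 8.25% of their loci on average.

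Of the H3K36 and H3K79 methyltransferases, Dot1l had the highest share and Setd2 the lowest. DOT1L is the H3K79 methyltransferase, SETD2 places H3K36 trimethylation in transcribed genes, and NSD1 and ASH1L place H3K36 dimethylation. Dot1l had 7.01 and 8.84 kb in WT against 7.46 and 11.8 kb in cKO, Setd2 3.72 and 3.52 kb against 4.16 and 4.54 kb, and Ash1l 8.27 and 7.51 kb against 11.6 and 12.4 kb. The genotypes overlapped at Dot1l, and the cKO libraries were the higher at Setd2 and Ash1l. Ash1l kept that order after centring, and the differences were -0.14 ± 0.23, -0.15 ± 0.21 and 0.19 ± 0.14 in that order (limma, adjusted p = 0.836, 0.806 and 0.657). Over Kdm2a, Kdm2b, Kdm3b, Kdm4a, Setdb1, Eed and Nsd1, which were tested and are not described further, the differences ran from -0.20 to 0.29 (limma, adjusted p 0.787 to 0.982).

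Among the corepressors, Ctbp2 had the largest share under peaks of all the members. The CTBP proteins are recruited by PRDM16 and other factors and bring demethylases and deacetylases to chromatin. Ctbp2, on chr7:132986998-133124009, had 60.7 and 52.2 kb in WT against 61.2 and 71.3 kb in cKO, and 44.2% of its gene span was under peaks. The longest stretch common to all 4 libraries measured 11.4 kb (chr7:133066044-133077426). Ctbp1, on chr5:33247723-33275004, had 6.9 and 5.33 kb in WT against 6.93 and 7.16 kb in cKO. At both genes the cKO libraries were the higher in bases by a small margin and the lower after centring, with differences of -0.15 ± 0.08 and -0.18 ± 0.17 (limma, adjusted p = 0.524 and 0.709). Hdac2 had 1.32 and 1.36 kb in WT against 1.49 and 1.26 kb in cKO, a difference of -0.36 ± 0.36 (limma, adjusted p = 0.73). Hdac1 had 6.91 and 2.54 kb in WT against 9.33 and 8.47 kb in cKO, with WT replicate 2 far below the other 3 libraries and both cKO libraries above both WT libraries in bases. Its difference was 0.60 ± 0.33 (limma, adjusted p = 0.555), and it was 1.14 (adjusted p = 0.0483) without WT replicate 1 and 0.06 (adjusted p = 0.946) without WT replicate 2. The Hdac1 locus reaches into Marcksl1 and Lck.

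Related genes differed widely in coverage. Over 18 pairs of paralogues among the members, 17 stood in the same order in all 4 libraries; the pairs share their libraries, so this is a description. Ctbp2 exceeded Ctbp1 by 25.2 ± 3.57 percentage points (SD, n = 4), and Setd1b exceeded Setd1a by 20.6 ± 1.02 points. Kdm6b exceeded Kdm6a, which had no peak, by 37.8 ± 7.54 points. The share at Kdm4b was 24.7 times that at Kdm4c, the share at Kmt2d 8.41 times that at Kmt2c, and the share at Ehmt2 4.04 times that at Ehmt1. The exception was Kdm5c and Kdm5a, in which each gene was the higher in 2 libraries. Where flanks held most of the peaks the order depended on them: within the gene span alone, Ezh2 (3.4%) stood above Ezh1 (2.14%), and Ehmt2 (6.9%) lay closer to Ehmt1 (4.42%).

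**Figure D5:**
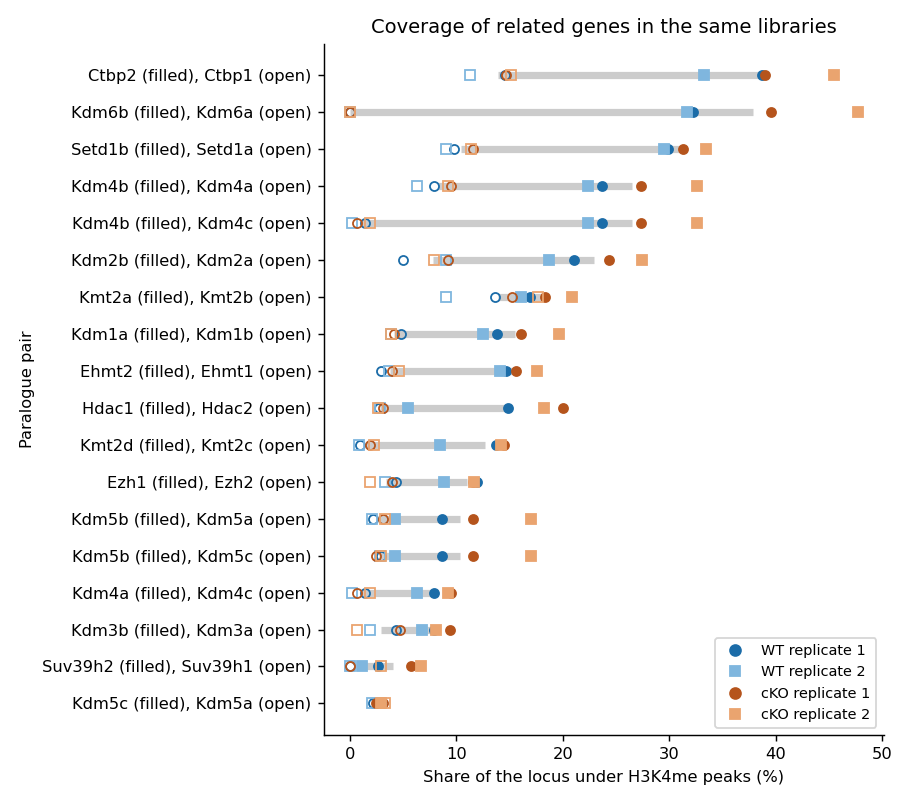
Share of the locus under H3K4me peaks (%) for the genes of each paralogue pair, 1 point per library, filled for the gene with the higher mean and open for the other, with a grey bar between their means. In 17 of 18 pairs the points of one gene lie to the same side of its paralogue's in every library, with the widest gaps at Kdm6b and Kdm6a and at Kdm4b and Kdm4c.

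Peaks found in 1 genotype only lay at 4 member loci for cKO and 1 for WT. A region was counted where a stretch of at least 200 bases common to both libraries of 1 genotype had no base under a peak of the other. There were 5591 cKO-only and 581 WT-only regions in the genome, and 5 cKO-only regions fell in 4 member loci, Kdm6b, Kdm2b, Kdm4b and Setd2. Of all loci, 13.8% held a cKO-only region. The longest, 1951 bp, lay within the span of Kdm6b (chr11:69399871-69401821), and a region of 1354 bp lay within that of Kdm4b (chr17:56359961-56361314). The other 3 lay in flanks, among them a region of 377 bp that began at -1.307 kb from the start of Setd2 (chr9:110531290-110531666). The 1 WT-only region at a member, where 1.57% of all loci held one, measured 322 bp within Kdm2b (chr5:122909586-122909907). When every list was cut to the same covered length, the balance turned at the members and in the genome. Then 1 cKO-only region lay at 1 member and 12 WT-only regions at 10, where 1.86% and 17.9% of all loci held one. The genome held 560 and 6718. This cut left the lists at unlike stringency. WT replicate 2 kept all its 66476 peaks, with -log10 q from 1.311, and cKO replicate 2 kept 40711, with -log10 q from 3.735.

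No partner of these enzymes passed the test either. Of 58 listed genes for subunits and partners of the same complexes, related enzymes and readers, 56 were tested and 0 were called, with a median difference of -0.07. At an unadjusted p under 0.05, 5 of the 56 were higher and 3 lower, beside 5.56% and 4.43% of all loci. The smallest p-values on the higher side were at Tbl1xr1, a corepressor subunit gene, at Dpy30, a core subunit of the H3K4 methyltransferase complexes, and at Kdm4d. Dpy30 had 2.73 and 1.92 kb in WT against 5.49 and 6.07 kb in cKO, Tbl1xr1 7.8 and 5.99 kb against 12.1 and 15.95 kb, and Kdm4d 0.495 and 0.434 kb against 2.67 and 2.58 kb. Both cKO libraries were above both WT libraries at all 3, and the differences were 0.78 ± 0.22, 0.59 ± 0.16 and 1.31 ± 0.37 in that order (limma, adjusted p = 0.435, 0.43 and 0.443). On the lower side, after centring only, were the NuRD helicase gene Chd3 and Pagr1a, a partner of KMT2C and KMT2D. Their differences were -0.32 ± 0.13 and -0.33 ± 0.14 in that order (limma, adjusted p = 0.489 and 0.497). Before centring, Pagr1a had 14.3 and 14.2 kb in WT against 14.9 and 14.8 kb in cKO, with both cKO libraries the higher. Chd3 had 12.7 and 11.9 kb in WT against 12.025 and 13.8 kb in cKO, and the genotypes overlapped. The highest shares in this list were at Pagr1a (65.2% ± 1.54) and the CoREST gene Rcor2 (64.1% ± 3.51), both above any member (SD, n = 4).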

How the data were processed

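H3K4me ChIP-seq of 2 WT and 2 cKO libraries was used; 4 input libraries are not analysed here. The authors trimmed with cutadapt, aligned with Bowtie2 2.2.8 to mm10 and called peaks with MACS2 2.1.1, per the submitters' processing notes, which give no options (calling filters and whether inputs served as controls: not given in the sources used here). There is 1 broadPeak list per library, not pooled. Each deposited peak carries a display score, a fold enrichment (a ratio) and -log10 p and q values; these are the authors' and only ranked or filtered peaks within a list. Lists give no read counts, so depth is unknown and no interval on single values was made.

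Bases under merged peaks were summed per locus (gene span plus 10 kb on either side, RefSeq GRCm38.p6) with numpy 2.4.6 and pandas 2.3.3 in Python 3.11.15. On simulated data, 150 random sets tested the overlap code with 0 mismatches. Log2(bases + 500) was centred on each library's median over loci averaging at least 1000 bases and compared with limma 3.58.1 (empirical Bayes with a trend, R 4.3.3), with Benjamini-Hochberg adjustment over all 14937 loci and a threshold of 0.05. Windows of 2 kb on either side of the outermost start in the RefSeq promoter table were compared likewise, with 100 bases added and a minimum mean of 200. Members and lists were chosen with earlier results of these data known. Values in every library are given for all H3K4 enzymes, Ehmt1, Ctbp1 and Ctbp2, in each other role for the members with the highest and lowest share and the largest difference, and for every member at an unadjusted p under 0.05 or without overlap after centring. Of the wider list, the 3 smallest p-values in each direction and the 3 highest shares are named, except an item that is not reported here. Alternatives covered the peaks used, pseudocount, filter, flank, scaling, trend, replicate block and leaving out each library. The cut to equal covered length kept the peaks of smallest p in each list. The weakest peak kept thus differed in q between lists.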

Additional observations from a re-analysis of the deposited data

How the results depend on the processing

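Over 18 alternatives for the loci and 9 for the start windows, no member and no locus or window was called except without WT replicate 1, where 119 loci were higher and 5 lower and 2 members passed (range 0 to 119, 0 to 5 and 0 to 2 over the libraries left out). The difference between replicates 1 and 2 was not shared by the genotypes (correlation -0.10 over 14937 loci). This cannot show whether the libraries were paired by litter or batch. With the replicate block 0 loci were called and Kdm5b was 0.75 (limma, adjusted p = 0.570). The members' median difference was -0.088 with stricter peaks, 0.028 with equal covered length, -0.096 with flanks of 25 kb, 0.34 without centring, 0.0022 with cyclic loess and -0.13 to -0.032 leaving out 1 library. For start windows it was -0.45 with stricter peaks, -0.12 with equal covered length and 0.20 without centring. The median covered share was 6.34% with equal covered length and 5.79% without flanks. cKO-only and WT-only regions at members numbered 1 and 12 with equal covered length, 3 and 0 at a minimum of 500 bp, and 26 and 2 with the edges of shared intervals, an alternative chosen after seeing the data.

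Differences that turned sign were, with equal covered length, Kmt2a 0.078, Kmt2e -0.68, Setd1a 0.028, Setd1b 0.068, Kdm1a -0.075, Kdm5b -1.18, Kdm4b 0.16, Kdm4c -0.23, Ehmt1 0.36, Ehmt2 0.15, Ezh1 0.21 and Dot1l 0.31, and in start windows Kdm1a 0.26, Ehmt2 0.12, Suv39h2 -0.78, Setd2 -0.087 and Ctbp2 -3.68. Without centring they were Kmt2a 0.24, Kmt2d 0.38, Setd1a 0.25, Setd1b 0.12, Kdm4b 0.37, Ehmt1 0.34, Ehmt2 0.19, Ezh1 0.16, Setd2 0.23, Dot1l 0.24, Ctbp1 0.20, Ctbp2 0.23 and Hdac2 0.024, and in start windows Kdm1a 0.32 and Ehmt2 0.18. With equal numbers of peaks they were Kmt2d 0.075, Kdm4b 0.026, Ehmt1 0.094 and Dot1l 0.11, with cyclic loess Kmt2d 0.061, Kdm4b 0.062 and Ehmt1 0.0022, with a filter of 3000 bases Kmt2d 0.031 and Kdm4b 0.018, and with 2000 bases added Kmt2d 0.021 and Kdm4b 0.053. Without flanks they were Kmt2b -0.16, Setd1a 0.021, Kdm4b 0.013 and Ehmt2 0.26, with flanks of 5 kb Kmt2b -0.19, Kmt2e -0.027 and Setd2 0.086, with flanks of 25 kb Kmt2e -0.057, and with stricter peaks Kdm6b -0.088, Ezh2 0.093, Dot1l 0.023 and the Setd2 start -0.033. Leaving out 1 library gave ranges of -0.22 to 0.22 for Kmt2d, -0.018 to 0.082 for Kdm1a, -0.045 to 0.14 for Kdm6b, -0.028 to 0.30 for Kmt2b, -0.077 to 0.048 for Kdm4b, -0.48 to 0.97 for Kdm4c, -0.28 to 0.20 for Ehmt1, -0.40 to 0.12 for Dot1l, -0.16 to 0.48 for Kmt2e, -1.78 to 0.27 for Kdm3a, and in start windows -0.064 to 0.17 for Setd2 and -0.42 to 0.11 for Kdm1a. Below the minimum coverage, Kdm1b, Kdm5a, Kdm5c, Kdm3a, Kdm4c, Ezh1 and Hdac2 had no value under 1 alternative and Suv39h2 and Ezh2 under 2. The causes were not tested, and the unknown depth of each list limits how small a difference these files can show.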
